A study of Mus musculus with 6 samples.

Results

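The genes that write, keep and remove cytosine methylation were followed in mouse embryonic stem cells (mESCs): the DNA methyltransferases Dnmt1, Dnmt3a and Dnmt3b, the catalytically inactive cofactor Dnmt3l, Uhrf1, the dioxygenases Tet1, Tet2 and Tet3, and the glycosylase Tdg. They were taken from the deposited count table by gene symbol, which gave 9 of 27179 genes, and all 9 passed the filter on low counts that left 12345 genes for testing. All cells carried Tfe3-ERT2, a fusion of the transcription factor Tfe3 with a tamoxifen-responsive receptor domain, and grew in medium with serum and the cytokine LIF. One group received 4-hydroxytamoxifen (4OHT, 1 µg/mL, 48 h), which lets the fusion enter the nucleus, and the other its ethanol vehicle (EtOH), with 3 libraries each. No cells without the fusion are among the 6 libraries, so effects of the fusion and of 4OHT itself cannot be told apart. The labels name neither the promoter of the fusion nor the parental line, nor whether the cells are 1 clone.

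Cytosines followed by guanine (CpG) are the main methylated bases of mammalian DNA. Dnmt3a and Dnmt3b methylate new sites, helped by Dnmt3l, while Uhrf1 binds the hemimethylated sites left by replication and brings in Dnmt1 to copy the pattern. TET enzymes oxidise methylcytosine, and Tdg cuts out the further oxidised bases so that repair can put back plain cytosine. Mouse embryonic stem cells are known to differ in methylation between culture states, and low levels of the de novo enzymes are a textbook feature of their naive state. Only RNA was measured here, not methylation or protein.

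The libraries held 4648374, 5567195 and 6427880 counts in 4OHT and 4984364, 4384615 and 4092877 counts in EtOH. Values below are in CPM, which sets counts against each library's total after TMM scaling, and 3 counts in 1 library equalled between 0.469 and 0.738 CPM. Whether replicates were grown as separate cultures is not stated by the labels. P-values therefore cover no more than the spread among the 6 libraries, which may be technical. Embryonic stem cell markers were present, with 12 of 12 tested, of which edgeR called 5 higher and 4 lower in 4OHT, and a summed level of 7322 to 7348 CPM in 4OHT and 6491 to 6544 CPM in EtOH. Other marker lists also moved: of 7 tested trophectoderm genes edgeR called 6 higher and 0 lower in 4OHT, and DESeq2 called 5 higher. Summed over the list they held 973 to 993 CPM in 4OHT and 456 to 479 CPM in EtOH. Cdx2, a gene of this list picked outside the rule for names, was not among those tested. It was at 1.54 CPM in 4OHT and 2.25 CPM in EtOH. Of 5 tested neural genes 3 were lower in 4OHT (summed over the list 112 to 122 CPM in 4OHT and 199.8 to 209.6 CPM in EtOH). All 3 tested primed epiblast genes were called by edgeR, 1 higher and 2 lower in 4OHT, with log2 fold changes from -3.05 to 1.39. DESeq2 called 1 higher and 1 lower. Their list summed to 32.8 to 38.7 CPM in 4OHT and 36.7 to 42.3 CPM in EtOH with Lhx1 at 0 in every library. Of 3 tested fibroblast and 4 tested primitive endoderm genes, edgeR, DESeq2 and limma-voom called 0, and 1 of each list had an unadjusted edgeR p under 0.05. The sums of fibroblast markers were 19.5 to 25.3 CPM in 4OHT and 15.1 to 23.1 CPM in EtOH with Lum at 0 in every library, and those of primitive endoderm markers 26.9 to 31.2 CPM in 4OHT and 18.0 to 27.0 CPM in EtOH. The part of these lists in the results below was not tested, and in bulk RNA fewer cells of a type and less RNA per cell cannot be told apart.

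Both de novo methyltransferases fell in 4OHT, Dnmt3a by more than Dnmt3b, and the cofactor Dnmt3l fell slightly. Uhrf1 and Tet2 rose, Tdg fell, and Dnmt1, Tet1 and Tet3 were not called. By edgeR's quasi-likelihood test at a Benjamini-Hochberg adjusted p under 0.05, 4 of the 9 genes were lower and 2 higher, where 20.6% of all tested genes were lower, 21.4% higher and 42.0% were called in either direction. The 2 groups of libraries did not overlap for these same 6 genes, while 48.8% of all tested genes had no overlap. Because so many genes were called, the members are also given by size: Dnmt3a and Dnmt3b, 2 of 9, were lower by at least 1.5-fold, against 4.29% of all tested genes, and no member was higher by that much, against 7.84%.

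**Figure D1:**
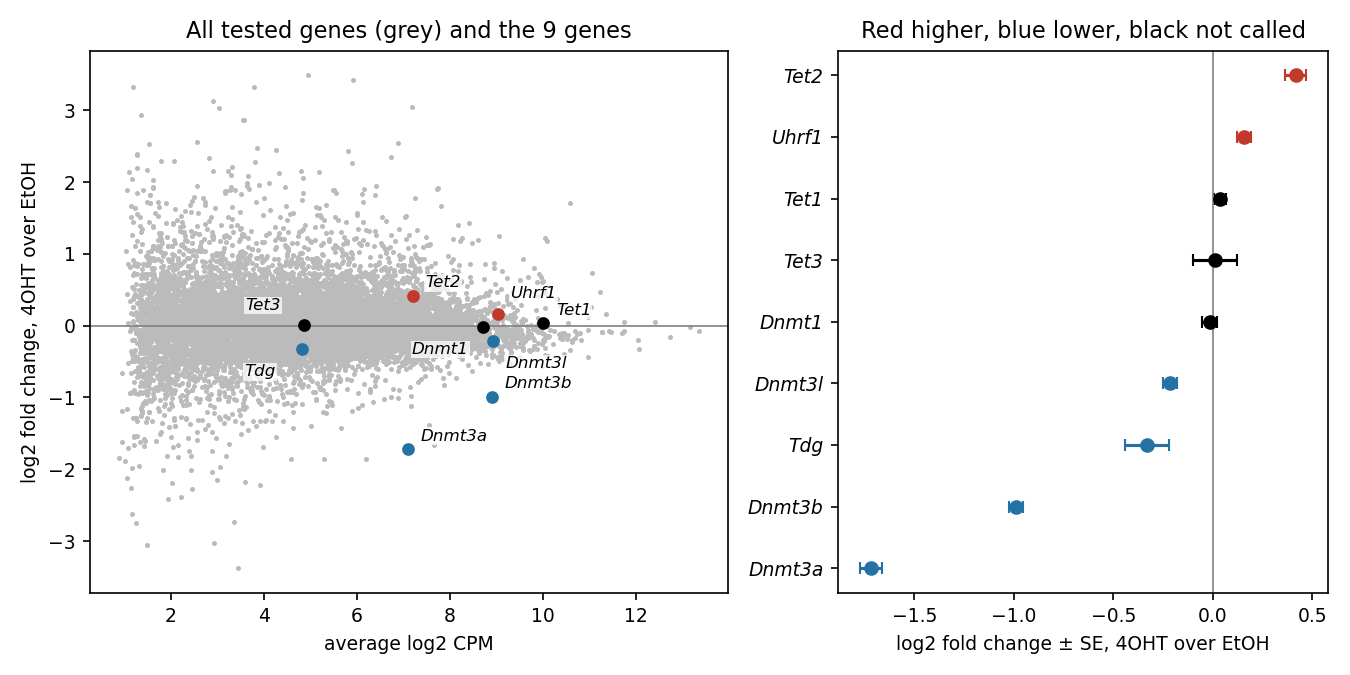
Log2 fold change (4OHT over EtOH) against average log2 CPM for all 12345 tested genes in grey with the 9 members labelled (left), and the members' log2 fold changes with SE bars in order of size (right). Dnmt3a and Dnmt3b lie at -1.72 and -0.99, well below most genes of like level, and the other 7 members lie between -0.33 and 0.42.

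Dnmt3a (Entrez 13435, chromosome 12, 3801559 to 3914443 on GRCm38) encodes one of the enzymes that methylate new sites. It had 65.1, 66.9 and 66.1 CPM in 4OHT libraries 1, 2 and 3 and 217, 222 and 213 CPM in EtOH libraries 1, 2 and 3, from 300, 371 and 423 counts in 4OHT and 1076, 980 and 867 counts in EtOH. Every 4OHT library was far below every EtOH library. The mean was 66.0 ± 0.899 CPM in 4OHT and 217 ± 4.13 CPM in EtOH (SD, n = 3 each), 3.29-fold lower in 4OHT (log2 fold change -1.72, SE 0.05, edgeR adjusted p = 2.2e-86). Among the 12345 tested genes it had the 33rd lowest log2 fold change.

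Dnmt3b (Entrez 13436, chromosome 2, 153649411 to 153687730), the other de novo enzyme, had 329, 319.7 and 322 CPM in 4OHT and 659.6, 639 and 625 CPM in EtOH, from 1515, 1773 and 2059 counts in 4OHT and 3275, 2825 and 2539 counts in EtOH. The 4OHT libraries lay close together and far below the EtOH libraries. The mean was 323 ± 4.78 CPM in 4OHT and 641 ± 17.6 CPM in EtOH (SD, n = 3 each), 1.98-fold lower in 4OHT (log2 fold change -0.99, SE 0.04, edgeR adjusted p = 8.6e-73), rank 189 from the lowest. Over the alternatives run, the log2 fold change stayed between -1.75 and -1.70 for Dnmt3a and between -1.02 and -0.97 for Dnmt3b.

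Dnmt3l (Entrez 54427, chromosome 10, 78042287 to 78063622) has no catalytic activity of its own and stimulates Dnmt3a and Dnmt3b. It had 448, 465 and 445 CPM in 4OHT and 529.9, 496 and 551 CPM in EtOH. The highest 4OHT library lay below the lowest EtOH library, by a small margin. The mean was 453 ± 10.6 CPM in 4OHT and 526 ± 27.6 CPM in EtOH (SD, n = 3 each), 1.16-fold lower in 4OHT (log2 fold change -0.22, SE 0.04, edgeR adjusted p = 1.2e-07). Its size was near the median absolute log2 fold change of all tested genes, 0.21.

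**Figure D2:**
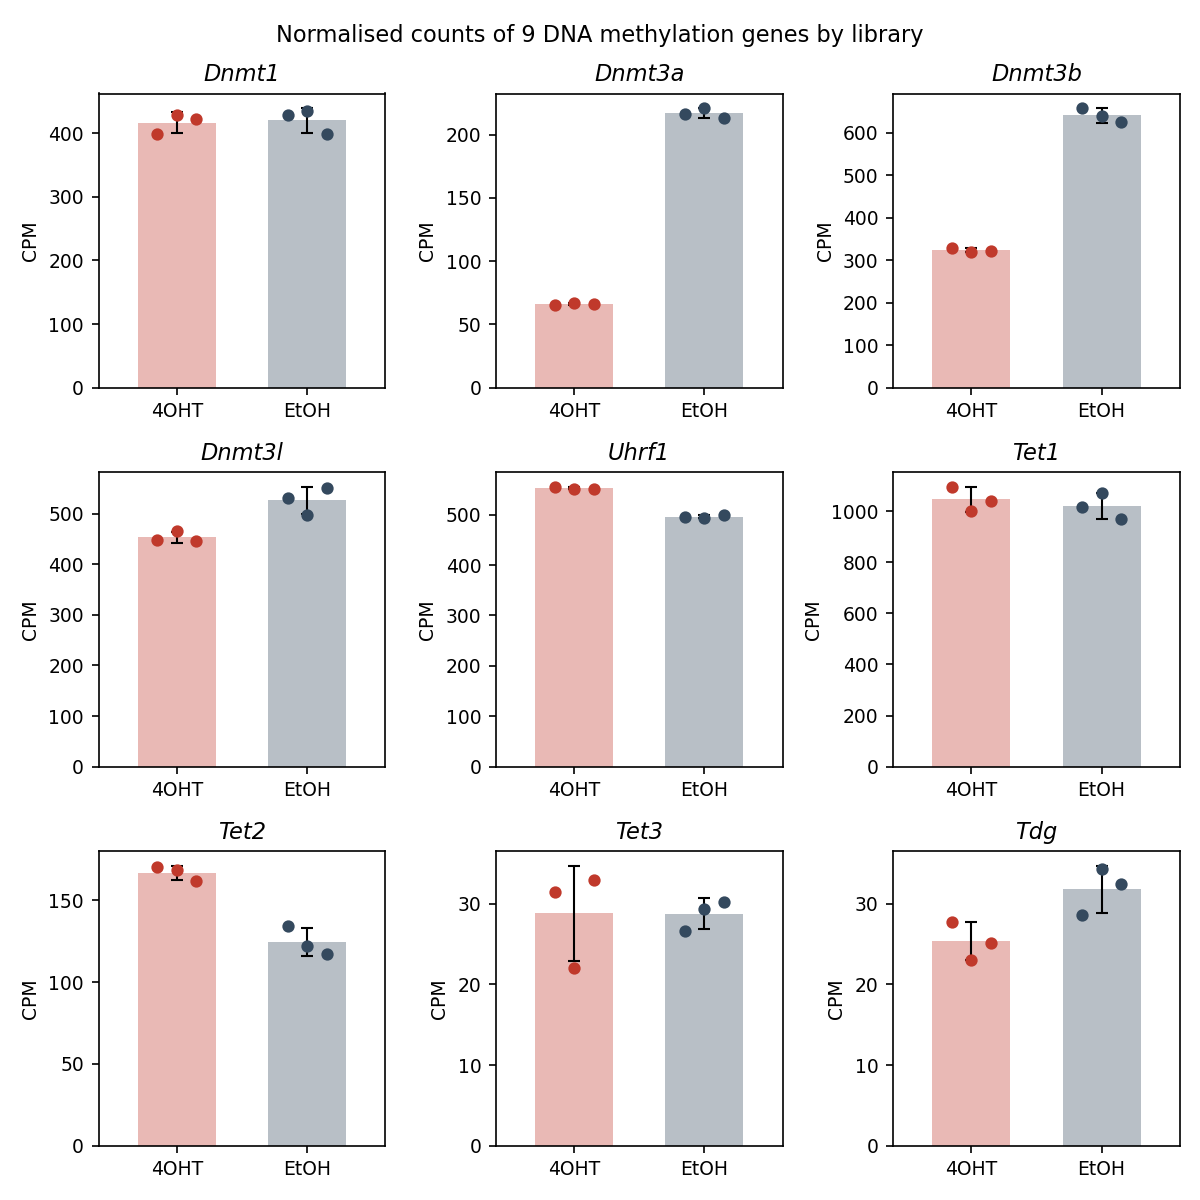
CPM of the 9 members in each library, 1 panel a gene with its own axis from 0, the 4OHT libraries left of the EtOH libraries, with bars for the group mean and SD. The groups are apart for Dnmt3a, Dnmt3b, Dnmt3l, Uhrf1, Tet2 and Tdg and overlap for Dnmt1, Tet1 and Tet3.

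Promoter windows of 250 bases before to 50 bases after each annotated start, from RefSeq on GRCm38.p6, were found for 9 of 9 members and gave 16 windows. Tfe3 and its relatives are known to bind CACGTG and TCATGTG, and both were searched on both strands (CACGTG reads the same on each). CACGTG was in 3 of the 16 windows, 1 each for Dnmt3a, Dnmt3l and Tdg, against 7.15% of all 32851 promoter windows and 8.09% of 27025 genes. The members had more windows a gene (16 for 9) than all genes (32851 for 27025), so the share per gene is not a like comparison. TCATGTG was in 0 of 16 windows, against 3.77% of all. These are matches of letters, and binding was not measured. The 3 windows with a match are shown with CACGTG in capitals, followed by those of Dnmt3b and Tet2, the other members whose RNA changed by more than 1.3-fold, which held none.
Dnmt3a, internal start, chr12:3891494-3891793, plus strand: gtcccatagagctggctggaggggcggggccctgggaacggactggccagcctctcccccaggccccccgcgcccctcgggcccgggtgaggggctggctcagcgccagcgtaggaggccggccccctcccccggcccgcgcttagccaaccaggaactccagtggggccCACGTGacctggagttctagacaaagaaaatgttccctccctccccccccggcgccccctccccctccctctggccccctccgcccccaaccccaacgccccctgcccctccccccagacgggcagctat
Dnmt3l, second start, chr10:78049592-78049891, plus strand: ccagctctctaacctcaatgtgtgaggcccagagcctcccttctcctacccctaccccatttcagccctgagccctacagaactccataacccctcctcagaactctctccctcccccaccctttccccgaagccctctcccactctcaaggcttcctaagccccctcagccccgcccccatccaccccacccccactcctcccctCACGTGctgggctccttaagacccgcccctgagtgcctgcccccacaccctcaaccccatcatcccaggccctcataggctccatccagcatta
Tdg, chr10:82629588-82629887, plus strand: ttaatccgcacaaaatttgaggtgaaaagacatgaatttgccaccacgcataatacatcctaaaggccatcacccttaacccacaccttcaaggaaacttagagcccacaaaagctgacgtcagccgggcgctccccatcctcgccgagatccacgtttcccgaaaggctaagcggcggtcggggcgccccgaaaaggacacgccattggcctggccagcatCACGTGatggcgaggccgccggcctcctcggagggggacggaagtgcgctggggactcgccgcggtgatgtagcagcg
Dnmt3b, chr2:153649199-153649498, plus strand: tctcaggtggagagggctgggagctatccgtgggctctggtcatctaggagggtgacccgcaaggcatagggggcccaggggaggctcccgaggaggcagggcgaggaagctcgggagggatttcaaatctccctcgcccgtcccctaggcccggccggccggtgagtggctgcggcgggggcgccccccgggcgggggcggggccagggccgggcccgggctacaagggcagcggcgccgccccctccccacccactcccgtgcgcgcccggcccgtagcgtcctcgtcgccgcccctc
Tet2, chr3:133544341-133544640, minus strand: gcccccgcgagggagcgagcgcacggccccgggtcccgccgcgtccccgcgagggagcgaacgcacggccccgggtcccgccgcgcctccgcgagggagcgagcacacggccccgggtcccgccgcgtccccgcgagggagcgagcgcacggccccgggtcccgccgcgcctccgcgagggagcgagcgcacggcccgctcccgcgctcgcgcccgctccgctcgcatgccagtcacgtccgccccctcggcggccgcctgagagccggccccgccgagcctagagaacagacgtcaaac

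The match began 80 bases before the internal start of Dnmt3a, 44 bases before the second start of Dnmt3l and 28 bases before the start of Tdg. TCACGTG, which contains CACGTG, was in the same 3 windows, against 3.77% of all promoter windows. In CpG content the windows differed widely. That of Tet2 held 57 CpG, more than 99.8% of promoters, and those of the other Dnmt3a starts held 46 and 47, against 18 at the internal start, 30 for Dnmt3b and 26 for Tdg. The windows of Dnmt3l held 6, 4 and 3, and the median over all promoters was 7. The table counts whole genes, so it does not show from which start the Dnmt3a or Dnmt3l RNA came.

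Of the genes that copy methylation at replication, Dnmt1 was not called and Uhrf1 rose by a small amount. Dnmt1 (Entrez 13433, chromosome 9, 20907206 to 20959888), the maintenance methyltransferase, had 398, 429 and 423 CPM in 4OHT and 429, 435 and 398 CPM in EtOH. The groups overlapped. The log2 fold change was -0.01 with SE 0.04 (edgeR adjusted p = 0.79), an interval of 2 SE from -0.09 to 0.06, and its sign turned when 4OHT library 1 (0.02) or EtOH library 2 (0.01) was left out.

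Uhrf1 (Entrez 18140, chromosome 17, 56303337 to 56323486) had 556, 552 and 551 CPM in 4OHT and 496, 493 and 499 CPM in EtOH. Spread within each group was under the distance between the groups, which did not overlap. The mean was 553 ± 2.61 CPM in 4OHT and 496 ± 3.23 CPM in EtOH (SD, n = 3 each), 1.11-fold higher in 4OHT (log2 fold change 0.16, SE 0.04, edgeR adjusted p = 9.0e-05). A processed copy, Gm5648, is 98.3% identical to Uhrf1 over 1590 bases and has no row in the table, so how its reads were counted is not known.

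Among the TET genes, Tet2 rose while Tet1, the most highly counted, and Tet3 were not called. Tet2 (Entrez 214133, chromosome 3, 133463677 to 133545136) encodes an oxidase without a CXXC domain of its own. It had 170.2, 169 and 162 CPM in 4OHT and 134, 122 and 117 CPM in EtOH. All 4OHT libraries were above all EtOH libraries. The mean was 167 ± 4.29 CPM in 4OHT and 125 ± 8.62 CPM in EtOH (SD, n = 3 each), 1.33-fold higher in 4OHT (log2 fold change 0.42, SE 0.05, edgeR adjusted p = 5.1e-13), and the alternatives gave 0.38 to 0.48.

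Tet1 (Entrez 52463, chromosome 10, 62804570 to 62887469), which has a CXXC domain that binds CpG-rich DNA, had 1096, 999.8 and 1041 CPM in 4OHT and 1016, 1071 and 969.8 CPM in EtOH. The groups overlapped, with a log2 fold change of 0.04 and SE 0.03 (edgeR adjusted p = 0.38), and 2 SE either way spanned -0.03 to 0.10. Tet3 (Entrez 194388, chromosome 6, 83362373 to 83457208), the form known from the oocyte and the zygote, had 31.5, 22.0 and 33.0 CPM in 4OHT and 26.6, 29.4 and 30.3 CPM in EtOH. Its lowest and highest libraries were both 4OHT libraries. The log2 fold change was 0.01 with SE 0.11 (edgeR adjusted p = 0.95), 2 SE spanned -0.21 to 0.24, and its sign changed between alternatives.

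Tdg (Entrez 21665, chromosome 10, 82629814 to 82650799), the glycosylase that removes oxidised methylcytosine, had 27.8, 23.1 and 25.1 CPM in 4OHT and 28.6, 34.4 and 32.5 CPM in EtOH, from 128, 128 and 161 counts in 4OHT and 142, 152 and 132 counts in EtOH. The groups did not overlap, but the highest 4OHT and the lowest EtOH library were close. The mean was 25.3 ± 2.35 CPM in 4OHT and 31.8 ± 2.94 CPM in EtOH (SD, n = 3 each), 1.26-fold lower in 4OHT (log2 fold change -0.33, SE 0.11, edgeR adjusted p = 0.010). This call was lost without 4OHT library 2 (edgeR adjusted p = 0.062), without EtOH library 2 (edgeR adjusted p = 0.081) and with DESeq2 (adjusted p = 0.072).

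Reads of Tdg can be split with near-identical processed copies. Tdg-ps is 98.7% identical to Tdg over 2956 bases and Tdg-ps2 99.2% over 1194 bases, and a further copy, Gm5597, has no row in the table. Tdg-ps2 had more counts than Tdg itself, 202, 250 and 310 in 4OHT and 255, 220 and 183 in EtOH, and missed the threshold (edgeR adjusted p = 0.44, log2 fold change -0.09). Summing Tdg with Tdg-ps and Tdg-ps2, a step chosen after seeing the data, gave 72.3, 69.3 and 74.0 CPM in 4OHT and 80.8, 84.8 and 79.0 CPM in EtOH, with a log2 fold change of -0.18 (SE 0.07, edgeR adjusted p = 0.025). Its direction was kept with a smaller size, and the value of Tdg alone is uncertain.

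Exons shared with other genes were few for the members. Tdg shared 6.83% of its exon bases with Glt8d2 on the opposite strand (1, 0 and 1 counts in 4OHT and 2, 1 and 5 in EtOH), and Dnmt3l shared 2.24% with Aire on the opposite strand (134, 155 and 151 counts in 4OHT and 121, 123 and 118 in EtOH). Dnmt3a shared 0.799% with the antisense gene Dnmt3aos, which had 1 count at most in any library, and Tet2 0.255% with Gm42567. The other 5 members shared 0. Without a stated strand setting of the counting, reads in shared exons cannot be told apart.

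Levels were also compared between genes, per base of the deposited gene length, as TPM (counts per base, scaled to the same sum in each library). Dnmt3l had the highest level in both groups, 549 ± 10.7 TPM in 4OHT and 625 ± 20.1 TPM in EtOH (SD, n = 3 each, as for all levels here). In 4OHT it was followed by Uhrf1 (346 ± 3.13 TPM), Dnmt3b (171 ± 2.58 TPM), Tet1 (169.6 ± 7.79 TPM), Dnmt1 (151 ± 6.69 TPM), Tet2 (41.6 ± 0.601 TPM), Tdg (18.0 ± 1.65 TPM), Dnmt3a (15.3 ± 0.283 TPM) and Tet3 (6.04 ± 1.28 TPM), with libraries of Dnmt3b and Tet1 overlapping. In EtOH the order was Dnmt3b (333 ± 12.0 TPM), Uhrf1 (305 ± 4.71 TPM), Tet1 (163 ± 11.5 TPM), Dnmt1 (149.8 ± 9.69 TPM), Dnmt3a (49.5 ± 1.99 TPM), Tet2 (30.4 ± 2.17 TPM), Tdg (22.2 ± 2.37 TPM) and Tet3 (5.91 ± 0.422 TPM), with libraries of Tet1 and Dnmt1 overlapping. Dnmt3b thus stood below Uhrf1 in 4OHT and above it in EtOH, and Dnmt3a stood below Tet2 and Tdg in 4OHT and above both in EtOH. The level of Dnmt3a rests on the deposited length of 9852 bases: with its shortest coding transcript, of 2328 bases, it would be 64.8 TPM in 4OHT and 209 TPM in EtOH. Tet2 and Tdg at their shortest coding transcripts would be 42.3 and 19.6 TPM in 4OHT. Dnmt3a would then stand above both in 4OHT as well, so its place below them holds only for the longer lengths. With the longest coding transcripts, a choice made after seeing the data, Dnmt1 stood above Tet1 in EtOH.

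**Figure D3:**
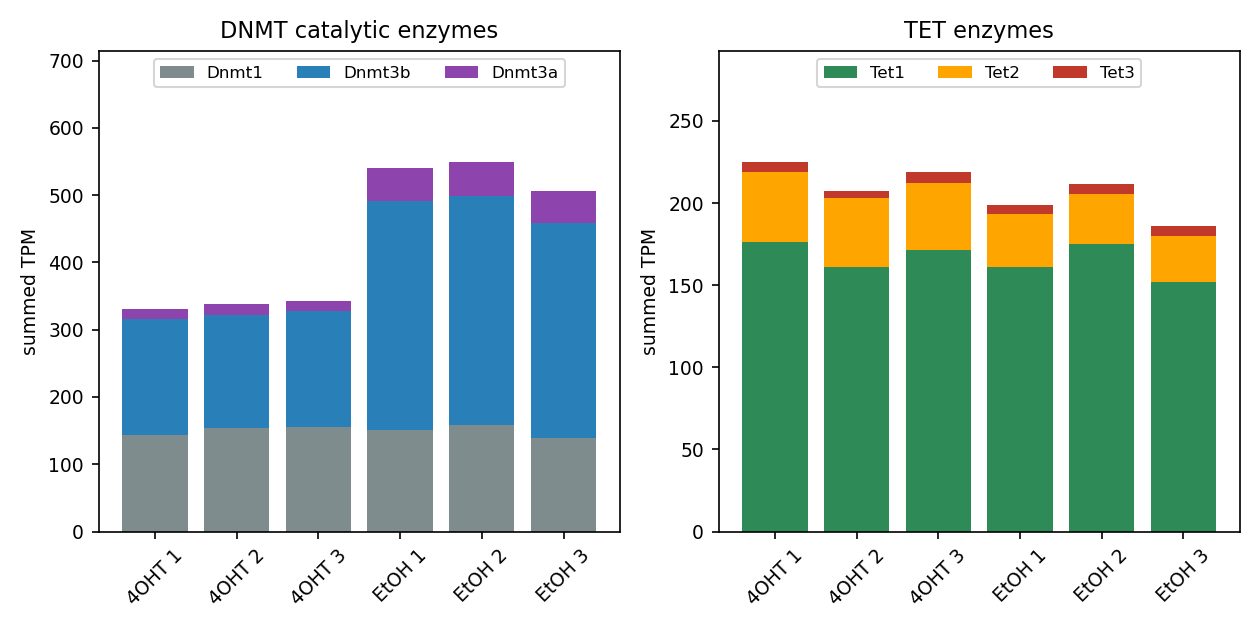
Length-scaled levels (TPM) of the methyltransferases Dnmt1, Dnmt3a and Dnmt3b (left) and of Tet1, Tet2 and Tet3 (right), stacked from 0 for each library, 4OHT left of EtOH. The summed methyltransferase level is lower in every 4OHT library, with Dnmt1 about equal in both groups, and the summed TET level overlaps between the groups.

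The catalytic methyltransferases summed to 337 ± 6.13 TPM in 4OHT and 532 ± 22.9 TPM in EtOH. Of that sum Dnmt1 made up 44.8 ± 1.28% in 4OHT and 28.1 ± 0.658% in EtOH, Dnmt3b 50.7 ± 1.29% in 4OHT and 62.6 ± 0.697% in EtOH, and Dnmt3a 4.54 ± 0.0208% in 4OHT and 9.30 ± 0.205% in EtOH. These shares rest on the deposited lengths, and that of Dnmt3a would be larger in both groups with its shortest coding transcript. The TET genes summed to 217 ± 8.95 TPM in 4OHT and 199 ± 12.6 TPM in EtOH. Tet1 was the bulk of this sum, 78.1 ± 0.375% in 4OHT and 81.7 ± 0.863% in EtOH, with Tet2 at 19.15 ± 0.835% in 4OHT and 15.3 ± 0.968% in EtOH and Tet3 at 2.77 ± 0.508% in 4OHT and 2.98 ± 0.281% in EtOH.

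The balance of the enzymes was described by 6 ratios between members, beginning with the 3 of the largest log2 difference. The ratio of Dnmt3a plus Dnmt3b to Dnmt1 was 1.24 ± 0.0649 in 4OHT and 2.55 ± 0.0826 in EtOH (log2 difference -1.05, SE 0.05). That of the TET genes to the catalytic methyltransferases was 0.645 ± 0.0335 in 4OHT and 0.374 ± 0.00978 in EtOH (log2 difference 0.79, SE 0.05). Dnmt3l stood at 2.95 ± 0.0949 times Dnmt3a plus Dnmt3b in 4OHT and 1.64 ± 0.109 times in EtOH (log2 difference 0.85, SE 0.06).

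The de novo enzymes also changed relative to each other, with a Dnmt3a to Dnmt3b ratio of 0.0896 ± 0.00251 in 4OHT and 0.149 ± 0.00414 in EtOH (log2 difference -0.73, SE 0.03). Tet1 to Tet2 was 4.08 ± 0.191 in 4OHT and 5.35 ± 0.387 in EtOH (log2 difference -0.39, SE 0.07), and Uhrf1 to Dnmt1 was 2.29 ± 0.102 in 4OHT and 2.04 ± 0.111 in EtOH (log2 difference 0.17, SE 0.06). None of the 6 ratios overlapped between the groups. The exact two-sided permutation p was 0.1 for each, and 0.1 after adjustment over the 6, which is the smallest that 3 libraries against 3 can give, so no ratio could pass 0.05. Ratios per length rest on the deposited lengths, but the change between groups in a ratio of 2 single genes is the same for any fixed pair of lengths.

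**Figure D4:**
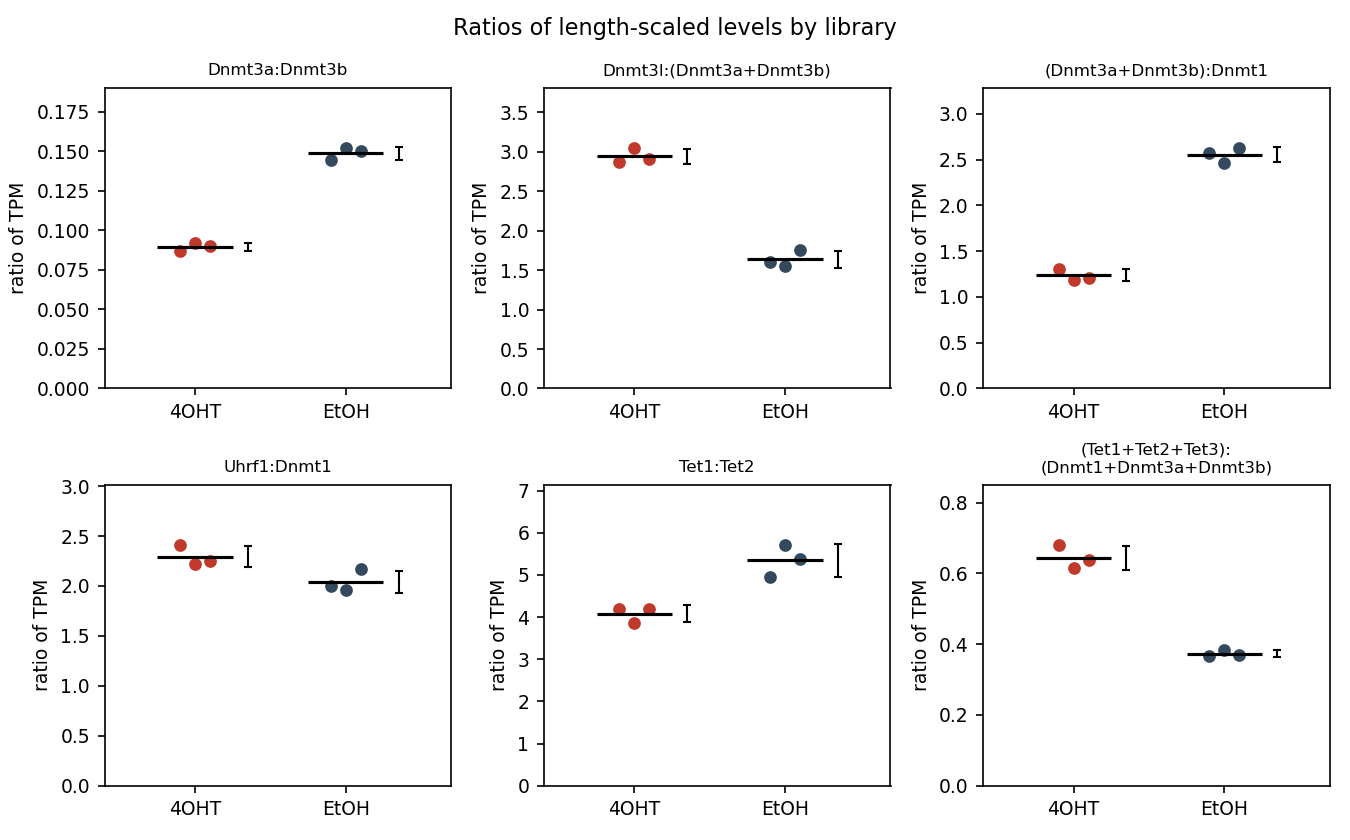
Ratios of length-scaled levels between members for each library, 1 panel a ratio with its own axis from 0, 4OHT left of EtOH, with bars for mean and SD. The groups are apart in all 6 panels, widest for Dnmt3a plus Dnmt3b over Dnmt1 (1.24 in 4OHT and 2.55 in EtOH).

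The genes whose levels over the 6 libraries were most like those of the 3 lowered Dnmt3 genes were found by the Euclidean distance between centred log2 CPM profiles, among 8457 tested genes whose average log2 CPM was 4 or more. This is a description, mostly of the size of the difference between the groups. Nearest to Dnmt3a was Mycn, a MYC family factor, at a distance of 0.147, with 100.1 ± 4.61 CPM in 4OHT and 315 ± 7.33 CPM in EtOH. Next were Pim2, a survival kinase (distance 0.205), and Lefty2, a Nodal antagonist (distance 0.210). Nearest to Dnmt3b were Pdzd4 (distance 0.0677), with 99.0 ± 3.67 CPM in 4OHT and 194 ± 4.36 CPM in EtOH, the tetraspanin gene Tspan7 (distance 0.0852) and Sulf1, a sulfatase that edits heparan sulfate (distance 0.111). Nearest to Dnmt3l were Gm8203 (distance 0.0464), Nol11 (distance 0.0475) and Sephs1 (distance 0.0531), and 387 bases of Gm8203 are identical to H2afz, so its reads are uncertain.

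Further genes of the pathway were followed in 7 lists, chosen with earlier results of these data known. Each count stands beside the 2643 higher (21.4%) and 2546 lower (20.6%) of all 12345 tested genes. In either direction 42.0% of all tested genes were called, and their median log2 fold change was -0.00. The first list held 17 genes for recruitment and upkeep of methylation, at replication and at marked nucleosomes, among them Dppa3, which acts against Uhrf1. Of these, 9 were lower, 4 higher and 4 not called, with a median log2 fold change of -0.16. Hells, a chromatin remodeller needed for methylation, had 539 ± 17.9 CPM in 4OHT and 725 ± 9.82 CPM in EtOH (SD, n = 3 each; log2 fold change -0.43, edgeR adjusted p = 4.4e-26). Its partner Cdca7 had 137 ± 4.40 CPM in 4OHT and 199 ± 1.88 CPM in EtOH (log2 fold change -0.54, edgeR adjusted p = 7.2e-22), and the related Cdca7l fell too (log2 fold change -0.95). Dppa3, which keeps Uhrf1 off chromatin, had 26.4 ± 2.84 CPM in 4OHT and 57.1 ± 1.71 CPM in EtOH (log2 fold change -1.12, edgeR adjusted p = 1.7e-24), though part of its reads may belong to the copy Dppa3-ps. Named after their values were seen, the PCNA partner Pclaf fell (log2 fold change -0.73) and the histone methyltransferase gene Ehmt2 rose (log2 fold change 0.34).

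**Figure D5:**
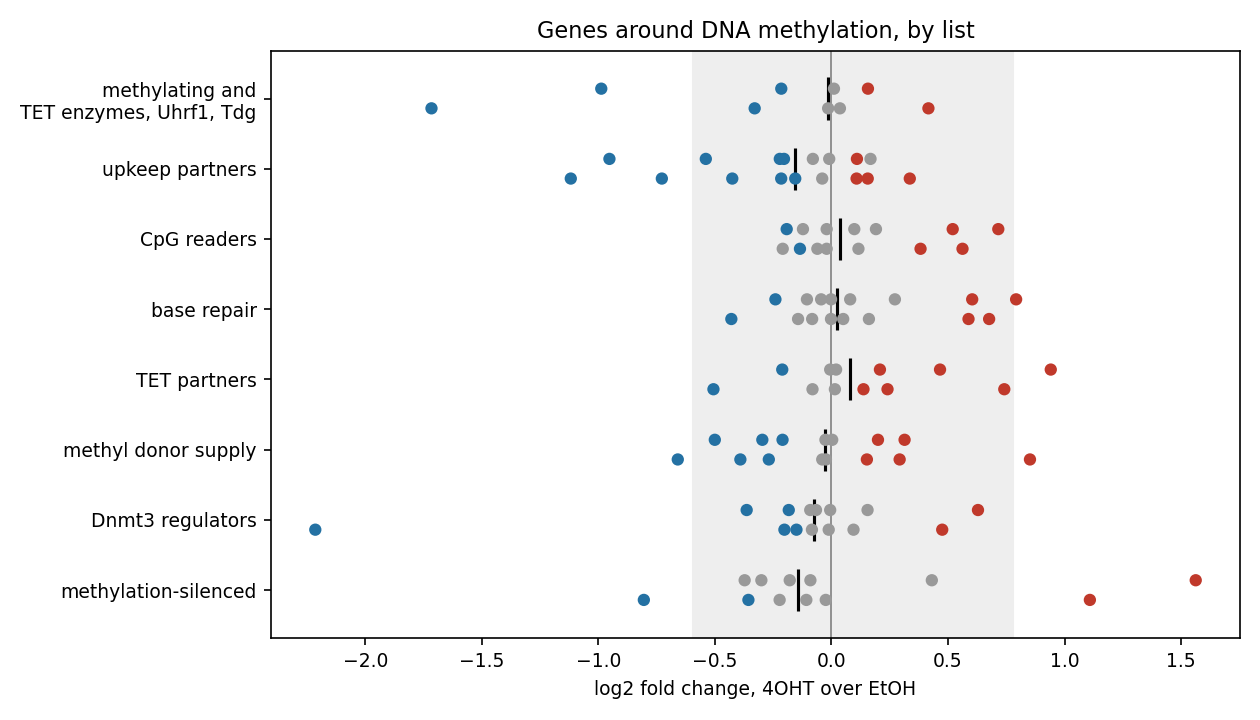
Log2 fold changes (4OHT over EtOH) of every tested gene of the 9 members and of the 7 pathway lists, 1 row a list, with genes called higher in red, called lower in blue and not called in grey, list medians as black bars, and a grey band from the 5th to the 95th percentile of all tested genes. The upkeep list has 9 of 17 genes called lower and the TET partner list 6 of 12 called higher. Of all tested genes 20.6% were called lower and 21.4% higher.

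Among the partners and cofactor suppliers of TET enzymes, 6 of 12 were higher, 2 lower and 4 not called, with a median log2 fold change of 0.08. Idh2, a mitochondrial enzyme that makes 2-oxoglutarate, the cosubstrate of TET enzymes, had 202 ± 8.16 CPM in 4OHT and 105 ± 1.82 CPM in EtOH (SD, n = 3 each; log2 fold change 0.94, edgeR adjusted p = 7.9e-46). Its cytosolic counterpart Idh1 had 187 ± 9.24 CPM in 4OHT and 112 ± 8.43 CPM in EtOH (log2 fold change 0.74, edgeR adjusted p = 3.6e-32). Slc23a2, a transporter of vitamin C, a TET cofactor, rose (log2 fold change 0.47). Metabolite levels were not measured.

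In base repair downstream of TET enzymes and Tdg, 4 of 16 genes were higher, 2 lower and 10 not called, with a median of 0.02. The uracil glycosylase gene Ung had 78.6 ± 1.38 CPM in 4OHT and 106 ± 7.97 CPM in EtOH (log2 fold change -0.43, edgeR adjusted p = 1.2e-09). Gadd45b, tied to demethylation through repair, had 32.4 ± 3.12 CPM in 4OHT and 20.3 ± 1.20 CPM in EtOH (log2 fold change 0.68, edgeR adjusted p = 1.9e-07). Gadd45g (log2 fold change 0.79) and the glycosylase gene Neil2 (log2 fold change 0.60) also rose.

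Of 14 tested readers of CpG, 4 were higher, 2 lower and 8 not called, with a median of 0.04. Cxxc5 rose (log2 fold change 0.38), as did Mbd2 (log2 fold change 0.52), a repressor that binds methylated CpG, and the repressor gene Rest fell (log2 fold change -0.19). Zbtb4, at 5.90 ± 0.352 CPM in 4OHT and 3.50 ± 0.990 CPM in EtOH (log2 fold change 0.72, edgeR adjusted p = 0.026), lost its call without 4OHT library 1 (edgeR adjusted p = 0.067), EtOH library 2 (edgeR adjusted p = 0.053) or EtOH library 3 (edgeR adjusted p = 0.15) and with DESeq2 (adjusted p = 0.12). Of 15 tested genes listed for supply or removal of the methyl donor SAM, 5 were higher, 6 lower and 4 not called, with a median of -0.03. Gldc, which feeds the folate cycle from glycine, had 809 ± 16.4 CPM in 4OHT and 659.98 ± 30.4 CPM in EtOH (log2 fold change 0.29, edgeR adjusted p = 8.3e-15). Adk, which removes adenosine, fell (log2 fold change -0.50), and Ahcy, which breaks down the inhibitory product SAH, fell (log2 fold change -0.66), but a copy of it, Gm4737, is 99.7% identical over 2083 bases with no row in the table. Ahcyl2, a paralog of Ahcy and not that enzyme itself, rose (log2 fold change 0.85).

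Of 14 genes listed for control of the Dnmt3 genes in mouse embryonic stem cells, 2 were higher, 5 lower and 7 not called, with a median of -0.08. The list mixes factors of transcription with feedback genes of ERK signalling, among them Spry4, 1 of the 2 called higher. Prdm14, a known repressor of Dnmt3b, had 20.2 ± 0.531 CPM in 4OHT and 20.4 ± 0.931 CPM in EtOH and missed the threshold (edgeR adjusted p = 0.98, log2 fold change -0.01), and is named after its value was seen. Spry4, a feedback inhibitor of ERK signalling, had 281 ± 4.69 CPM in 4OHT and 182 ± 6.87 CPM in EtOH (log2 fold change 0.63, edgeR adjusted p = 2.0e-32). The naive factor gene Klf4 rose (log2 fold change 0.48), and Zic2, a factor of the primed state, had 5.47 ± 0.943 CPM in 4OHT and 25.9 ± 0.108 CPM in EtOH (log2 fold change -2.22, edgeR adjusted p = 3.4e-29). Otx2, at 20.3 ± 3.55 CPM in 4OHT and 26.7 ± 3.52 CPM in EtOH (log2 fold change -0.36, edgeR adjusted p = 0.011), overlapped between the groups and lost its call without 4OHT library 1 (edgeR adjusted p = 0.082), 4OHT library 2 (edgeR adjusted p = 0.060) or EtOH library 3 (edgeR adjusted p = 0.13) and with DESeq2 (adjusted p = 0.073).

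Genes known to be silenced by promoter methylation, mostly of the germ line, gave no common direction. Of 21 listed, 12 were tested, 2 were higher, 2 lower and 8 not called, with a median of -0.14. Not all were silent in these cells, with Ddx4 at 39.9 CPM in EtOH, and their promoter methylation was not measured. Rhox6 had 7.95 ± 0.982 CPM in 4OHT and 2.74 ± 1.05 CPM in EtOH (log2 fold change 1.56, edgeR adjusted p = 2.5e-07), and its paralog Rhox9 had 4.78 ± 0.844 CPM in 4OHT and 2.14 ± 1.35 CPM in EtOH (log2 fold change 1.11, edgeR adjusted p = 0.0030), lost without EtOH library 3 (edgeR adjusted p = 0.079). Ddx4, the germ cell helicase Vasa, had 31.2 ± 2.61 CPM in 4OHT and 39.9 ± 1.18 CPM in EtOH (log2 fold change -0.36, edgeR adjusted p = 0.0015). Tdrd1, at 3.27 ± 0.922 CPM in 4OHT and 5.72 ± 0.452 CPM in EtOH (log2 fold change -0.81, edgeR adjusted p = 0.014), lost its call without 4OHT library 3 (edgeR adjusted p = 0.089) or EtOH library 1 (edgeR adjusted p = 0.060) and with DESeq2 (adjusted p = 0.081). Dazl, a classic gene of this kind, missed the threshold (edgeR adjusted p = 0.79, log2 fold change -0.09) and is named after its value was seen. The other 9 of the 21 genes were too low to test at this depth.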

How the data were processed

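Libraries were made with a stranded mRNA kit, per the labels. The authors deposited raw counts per gene with a gene length; fastp, STAR and featureCounts on mm10 are listed in the submitters' processing notes, without versions or settings. Of 27179 genes, 1314 had no symbol. edgeR 4.0.16 in R 4.3.3 kept genes with filterByExpr (minimum count 10, total 15), scaled with TMM and compared 4OHT with EtOH by robust quasi-likelihood tests, adjusted by Benjamini-Hochberg over 12345 genes (threshold 0.05). SE is the absolute log2 fold change over the square root of F. TPM used the deposited lengths. The steps were tested on simulated data. Alternatives were limma 3.58.1 (voom), DESeq2 1.42.0, other scalings and filters, a replicate block and leaving out each library. Every pair of libraries differed by more than counting error. Same-numbered libraries did not deviate together (correlations -0.02 each), so numbers were not used as pairs. Members, lists and rules were chosen with earlier results of these data known. Beyond the 9 members, the text names from each list the 3 called genes with the smallest p and the called gene of largest change among the rest, and the 3 nearest profiles of each Dnmt3 gene; others are marked, and 1 gene under this rule is not reported here. Copies came from alignments among GENCODE vM21 transcripts (at least 95% identity over 200 bases), and exon overlaps from GENCODE vM21 exons. Python 3.11.15, pandas 2.3.3, scipy 1.17.1 and matplotlib 3.10.9 were used.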

Additional observations from a re-analysis of the deposited data

How the results depend on the processing

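Over 4 scalings and filters, a replicate block, 2 other tools and 6 runs leaving out 1 library each, the members called higher were 2 throughout, and those called lower were 4, except 3 with DESeq2 and 3 to 4 when 1 library was left out, where Tdg lost its call. All 6 ratios kept their direction when a library was left out, without length scaling and with the longest coding transcripts, the last chosen after seeing the data. The number of genes called was 5189, and 5182 with DESeq2 size factors, 5277 with upper quartile factors, 4982 with no filter, 5265 with a 1 CPM filter, 3687 with DESeq2, 5084 with limma-voom and 4435 to 4951 without 1 library. With the replicate number as a block 5082 genes were called, with 4 members lower and 2 higher, but the numbers do not pair the libraries. Only the uncalled Tet3 and Dnmt1 changed sign. For Tet3 the log2 fold change was -0.0234 with upper quartile factors, -0.0020 with the replicate block, -0.0087 with limma-voom and -0.117 to 0.176 without 1 library. For Dnmt1 it was -0.0507 to 0.0183 without 1 library. The cause was not tested. Depth limits Tet3 and Tdg most: counting error alone was 7.92% of the mean for Tet3 and 8.48% for Tdg in 4OHT.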

Other observations

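The members differed in how far replicate libraries scattered relative to counting error. Uhrf1 varied by a coefficient of variation of 0.472% in 4OHT and 0.650% in EtOH, below its counting error of 1.81% in 4OHT and 2.12% in EtOH. Dnmt3a varied by 1.36% in 4OHT and 1.90% in EtOH, also below counting errors of 5.24% in 4OHT and 3.20% in EtOH. Tet1 varied by 4.62% in 4OHT and 4.98% in EtOH, above counting errors of 1.32% in 4OHT and 1.48% in EtOH. Tet3 varied by 20.6% in 4OHT and 6.68% in EtOH, with counting errors of 7.92% in 4OHT and 8.83% in EtOH, and 4OHT library 2 was its lowest. With 3 libraries a group, these coefficients are themselves imprecise.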
